A study of Homo sapiens with 17 samples.

Results

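The genes CCL2, CCL7, CCL11, CCL20 and CCL5, which encode 5 secreted CC chemokines, were described here out of the 26457 genes listed in the mRNA-seq table of human SW480 colon cancer cells. They were chosen from earlier results on the same libraries, in which CCL2, CCL7, CCL11 and CCL20 were lower after depletion of mutant p53 (mutp53) at 16 h of TNF-α, and CCL2 and CCL7 were among the genes induced by TNF-α. Values of these 5 genes in all comparisons are therefore given as a description. The calls that a fit over all genes gave them are counted as part of that description and are not a test of these genes. All 5 passed the filter of a mean of at least 2.5 normalized reads over the 8 libraries. However, 4 of the 5 had no read at 0 h and passed it only through the libraries at 16 h.

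CC chemokines are small secreted proteins with a pair of adjacent cysteines that attract leukocytes through G protein-coupled receptors. Tumor cells and stromal cells release them during inflammation, and NFκB, the transcription factor family activated by TNF-α, is a well-known activator of several of these genes. CCL2 attracts monocytes through CCR2, CCL7 is a close relative that also attracts monocytes, and CCL11 (eotaxin) attracts eosinophils through CCR3. CCL20 attracts CCR6-bearing lymphocytes and dendritic cells to mucosal surfaces, whereas CCL5 (RANTES) attracts T cells and monocytes. On hg19, CCL2 (NM_002982) lies on the plus strand at chr17:32582296-32584220, and CCL7 (NM_006273, chr17:32597235-32599261) and CCL11 (NM_002986, chr17:32612687-32615199) follow on the same strand, with their starts 14.9 kb and 30.4 kb further on. CCL5 (NM_002985) lies on the minus strand at chr17:34198496-34207377, 1616 kb from CCL2 by lower coordinate, and CCL20 (NM_001130046) lies on chromosome 2 at chr2:228678558-228682280. Reads were counted over the whole exonic length of each gene, which ranged from 742 bases for CCL2 to 1224 bases for CCL5.

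SW480 cells with a doxycycline-inducible short hairpin RNA (shRNA) against LacZ served as the control, and cells with an shRNA against p53 were the mutp53-depleted (depleted) group, all grown with 1 µg/ml doxycycline and puromycin. SW480 is an established colon cancer line with mutant p53 only, and no group had wild-type p53. Both kinds of cell were harvested before TNF-α (0 h) or after 16 h at 12.5 ng/ml, with 2 biological replicates (A and B) in each of the 4 groups. The GRO-seq and ChIP-seq samples of the series were not analysed here, and the sources used here do not state whether either shRNA line was a single clone.

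The depth was 6108488 to 13809578 reads on genes per library, so that 1 read stood for 0.670 to 1.51 normalized reads. The 5 epithelial markers (EPCAM, KRT8, KRT18, KRT19 and CDH1) summed to between 42212 and 69182 normalized reads per library, with 55705 and 55803 in the control and 42212 and 43320 in the depleted libraries at 16 h. Of 7 leukocyte and monocyte markers, 4 passed the filter, PTPRC was at 0 in every library, and the sum was 47.0 to 59.5 and 66.9 to 83.1 in the control cells at 0 h and 16 h, against 70.4 to 72.7 and 111 to 115 in the depleted cells. The 7 fibroblast markers, with COL3A1 and DCN at 0, summed to 28.5 to 39.4 in the control and 57.0 to 177 in the depleted libraries, and the 3 endothelial markers to 5.69 to 7.26 and 17.6 to 28.8. Only 2 of the fibroblast and 1 of the endothelial markers passed the filter, so these sums do not show that each list moved as a whole. At 16 h the leukocyte, fibroblast and endothelial sums were thus higher, and the epithelial sum lower, in the depleted libraries, and their part in the values below was not tested.

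RefSeq promoter sequence was found for 2 of the 5 genes, CCL7 and CCL20, and is shown because they are a neighbour of CCL2 and the gene on chromosome 2 that are compared below. The 250 bases upstream of each start are given 5′ to 3′ from GRCh38.p14, on the plus strand, at chr17:34269971-34270220 for CCL7 and chr2:227813592-227813841 for CCL20, with matches to 3 searched motifs in capitals.
CCL7: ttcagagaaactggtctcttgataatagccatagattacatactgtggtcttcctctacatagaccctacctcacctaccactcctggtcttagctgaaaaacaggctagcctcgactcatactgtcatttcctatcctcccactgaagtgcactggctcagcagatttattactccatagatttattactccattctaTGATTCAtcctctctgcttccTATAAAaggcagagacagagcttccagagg
CCL20: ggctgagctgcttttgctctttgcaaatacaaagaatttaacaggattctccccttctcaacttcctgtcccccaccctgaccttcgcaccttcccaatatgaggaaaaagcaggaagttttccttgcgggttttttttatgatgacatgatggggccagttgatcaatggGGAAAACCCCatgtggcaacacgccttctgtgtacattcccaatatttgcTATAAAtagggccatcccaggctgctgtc
Motifs were searched on both strands: the TATA box (TATAAA), the AP-1 core (TGANTCA) and the NFκB consensus. The last was GGGRNNYYCC, where R is a purine, Y a pyrimidine and N any base. Both promoters held TATAAA, at bases 30 to 25 before the start of CCL7 and 29 to 24 before that of CCL20, a motif found in 3763 of 35116 promoter entries of this length (10.7%). The CCL7 promoter held the AP-1 core at bases 51 to 45 before the start, as did 6.57% of all entries, and no NFκB consensus. In the CCL20 promoter, the NFκB consensus stood at bases 79 to 70 before the start, with no AP-1 core. It matched on the strand opposite to the one printed, and 9.96% of all entries held it on either strand. None of these matches overlapped another, and each describes letters in this window and not binding.

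CCL2 was by far the most abundant of the 5 chemokines and the only one with reads before TNF-α. It had 3.63 and 3.03 normalized reads in the control libraries at 0 h and 5.36 and 2.74 in the depleted libraries, so that the groups overlapped. After 16 h of TNF-α, CCL2 had 1968 and 1561 in the control libraries and 576 and 305 in the depleted libraries. Every 16 h library was far above every 0 h library, and both depleted libraries at 16 h were below both control libraries. The mean at 16 h was 1764 ± 288 (SD, n = 2) in control cells and 440 ± 192 in depleted cells, a 4.01-fold difference with a counting interval of 3.59 to 4.17. Counting intervals (95%, exact) cover the sampling of reads and not the spread between replicates. The CCL2 mean was 530-fold higher after TNF-α in control cells, from 7 reads in both 0 h libraries together (counting interval 255 to 1307), and 109-fold in depleted cells (56.1 to 217). On the log2(value + 1) scale used for all differences, the response was 8.67 ± 0.29 (SE) in control and 6.43 ± 0.29 in depleted cells, a difference between responses of -2.24 ± 0.41. In these bulk libraries, fewer expressing cells and less RNA per cell cannot be told apart.

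CCL7 followed the same order at a lower level. It had no read in any 0 h library, which allows up to 3 reads in each. At 16 h it had 139 and 82.5 normalized reads in the control libraries, and 10.9 and 3.70 in the depleted libraries, from 13 and 3 reads. The control libraries were each above both depleted libraries, with means of 111 ± 40.1 (SD, n = 2) and 7.30 ± 5.09. This was a 15.2-fold difference (counting interval 8.75 to 26.0), or -3.85 ± 0.62 (SE) on the log2 scale. Without the depleted 16 h library A the fold was 30.0 and the log2 difference -4.53, and without library B they were 10.2 and -3.18; the TNF-α response of depleted cells, 2.90 ± 0.62 with both, was then 2.23 and 3.57. Against a floor of 3 reads per 0 h library, CCL7 was at least 33.0-fold higher at 16 h in control cells and at least 2.38-fold higher in depleted cells. The second limit was 1.21-fold without depleted 16 h library A and 3.56-fold without library B. Without 0 h library B of each kind of cell, the shallower one, the floor was lower and the limits were 50.9-fold and 3.63-fold. Without 0 h library A, the floor was higher and the limits were 24.4-fold and 1.77-fold. The limits of CCL11, CCL20 and CCL5 below became 4.85-fold, 11.2-fold and 5.60-fold in control cells without 0 h library B. Without 0 h library A they were 2.32-fold, 5.38-fold and 2.68-fold. That of CCL5 in depleted cells was 4.04-fold without library B and 1.97-fold without library A. Without control 16 h library A, the limits in control cells were 24.5-fold for CCL7 and 5.93-fold for CCL20. Each limit is thus for the mean of the libraries and was lower with some left out.

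CCL11 was seen in only a few reads. No 0 h library had one. At 16 h the control libraries held 12.6 and 8.54 normalized reads and the depleted libraries 0.84 and 1.23, the latter from 1 read each. The groups did not overlap, but a depleted library with 1 read was within the limit that a count of 0 allows. The ratio of the means, 10.2, had a counting interval of 2.64 to 97.0, and the log2 difference was -2.49 ± 0.80 (SE). CCL11 was at least 3.14-fold higher at 16 h in control cells, and no fold is given for the depleted cells, where both times were at or under the floor. CCL11 at 16 h was no longer called with a pseudocount of 0.1, with DESeq2, or without library A of either 16 h group, with log2 differences of -3.39 to -2.24 under these alternatives.

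CCL20, the only one of these genes off chromosome 17, had the same pattern as CCL7 and CCL11. It had no read at 0 h, 29.0 and 19.9 normalized reads in the control libraries at 16 h, and 3.35 and 1.23 in the depleted libraries, from 4 reads and 1 read. Both control libraries were above both depleted libraries, with means of 24.5 ± 6.42 (SD, n = 2) and 2.29 ± 1.50. The difference was 10.7-fold (counting interval 4.03 to 32.8) and -3.01 ± 0.73 (SE) on the log2 scale. Without depleted 16 h library A the fold was 19.9 and the log2 difference -3.49, and without library B they were 7.30 and -2.53. CCL20 was no longer called with a pseudocount of 0.1, where the log2 difference was -3.49. CCL20 was at least 7.28-fold higher at 16 h than at 0 h in control cells, and mutp53-depleted cells had too few reads at 16 h for a fold.

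CCL5 stood apart. It had no read at 0 h, and at 16 h it had 11.6 and 12.8 normalized reads in the control libraries and 10.1 and 6.17 in the depleted libraries. The depleted values were the lower ones, yet the ratio of the means, 12.2 ± 0.849 to 8.12 ± 2.75 (SD, n = 2), was 1.50 with a counting interval of 0.716 to 2.88, which includes 1. The log2 difference was -0.57 ± 0.69 (SE). The counting interval of CCL5 met that of CCL11 (2.64 to 97.0) but not those of CCL2, CCL7 and CCL20. CCL5 was at least 3.63-fold higher at 16 h in control cells and at least 2.65-fold higher in depleted cells.

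**Figure D1:**
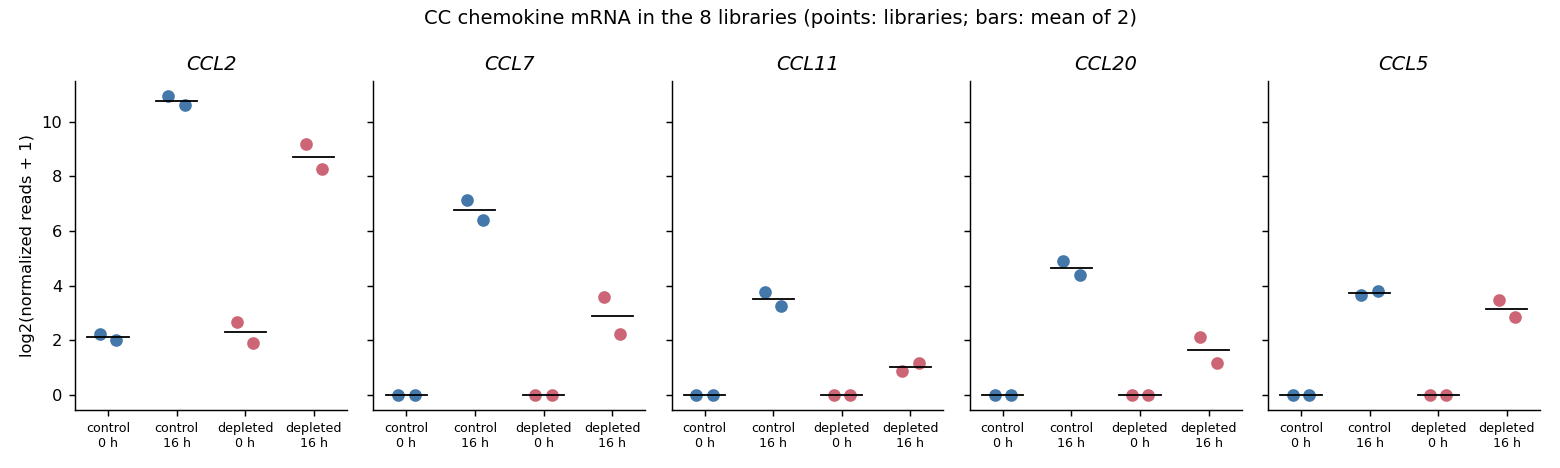
Each panel plots log2(normalized reads + 1) of 1 gene in the 8 libraries, as points, with the mean of the 2 libraries of a group as a bar. CCL2, CCL7, CCL11 and CCL20 are highest in control cells at 16 h and lower in depleted cells at 16 h, whereas the CCL5 points of these groups lie close together; at 0 h every gene but CCL2 is at 0.

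For the counts below, a gene was called when limma gave a Benjamini-Hochberg adjusted p under 0.05 over the 14800 genes tested and, except for the difference between responses, a change of at least 2-fold. At 16 h, CCL2, CCL7, CCL11 and CCL20 were called lower after depletion, 4 of 5, beside 10.2% of all genes tested. Both depleted libraries were below both control libraries for 5 of 5 genes, beside 37.6% of all genes. At 0 h, 0 of 5 were called, beside 15.4% of all genes in either direction, but 4 of the 5 had no read there. All 5 were called higher at 16 h of TNF-α in control cells, beside 2.97% of all genes, and CCL2, CCL7 and CCL5 were called higher in depleted cells, beside 1.86%. The TNF-α response was called smaller after depletion for CCL2 and CCL7, beside 2.21% of all genes. These contrasts chose the genes, so the calls describe them and nothing is read from the shares. The median log2 difference of the 5 genes was -2.49 with depletion at 16 h (all genes -0.01), 4.65 with TNF-α in control cells (all genes -0.05) and 2.90 with TNF-α in depleted cells (all genes -0.06). These fitted medians rest on the pseudocount where a gene had no read at 0 h. With such genes at their bounds, the middle value of the 5 was the at least 7.28-fold of CCL20 in control cells and the at least 2.38-fold of CCL7 in depleted cells, which depends on 1 library as stated above. The contrasts share libraries, and for the 4 genes without reads at 0 h the difference between responses equals the difference at 16 h by construction. The smaller response was not called for either gene by edgeR's quasi-likelihood test or DESeq2 on the recovered reads, with log2 values of -2.33 and -2.36 for CCL2 and -3.83 and -3.74 for CCL7. CCL2 also lost this call without control 16 h library A, at -2.07.

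**Figure D2:**
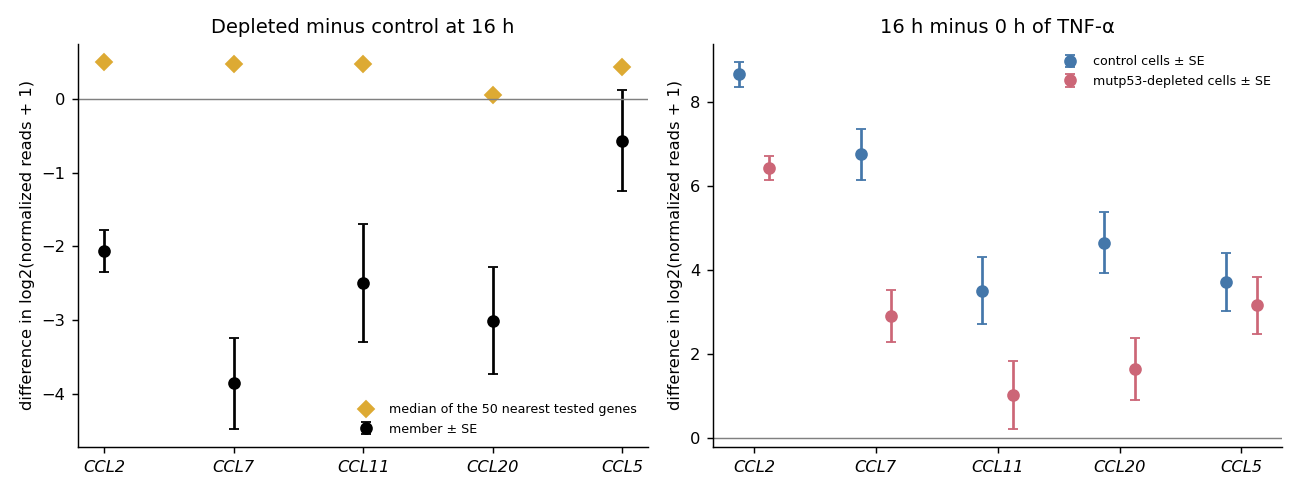
Differences in log2(normalized reads + 1) for the 5 genes, with the SE of the fit as bars: at left mutp53-depleted minus control at 16 h, with diamonds for the median difference of the 50 nearest tested genes, and at right 16 h minus 0 h of TNF-α in each kind of cell. CCL2, CCL7, CCL11 and CCL20 lie from -3.85 to -2.06 at left while the diamonds lie between 0.06 and 0.50, and CCL5 at -0.57 is within 1 SE of 0.

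The chromosome 17 neighbours were then compared with CCL20. Relative to CCL20 in the same library, CCL2 stood at a log2 ratio of 6.13 ± 0.13 (SD, n = 2) in control and 7.08 ± 0.03 in depleted cells at 16 h, 0.95 higher. The 2 pairs of libraries did not overlap, but with a pseudocount of 5 the change was -0.038 in place of 0.95. CCL7 moved the other way against CCL20, from 2.11 ± 0.16 to 1.26 ± 0.27, a change of -0.85, which was -1.27 to -0.54 under the other settings. The CCL20 values of the depleted libraries rest on 5 reads, so that its place relative to either neighbour was not resolved by the counts. For CCL11 the ratio to CCL20 went from -1.14 ± 0.01 to -0.62 ± 0.88, and its change of 0.52 was smaller than the spread of the depleted libraries.

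The neighbours also differed among themselves. The log2 ratio of CCL2 to CCL7, whose starts lie 14.9 kb apart, was 4.02 ± 0.29 in control and 5.81 ± 0.30 in depleted cells, a change of 1.79 with no overlap. The counting intervals of their folds at 16 h, 3.59 to 4.17 for CCL2 and 8.75 to 26.0 for CCL7, did not meet, whereas the interval of CCL20 (4.03 to 32.8) met both. CCL5 gained most on CCL20, from -0.93 ± 0.46 to 1.52 ± 0.24, a change of 2.44. With any 1 of the 16 h libraries left out, the fold was 3.06 to 5.79 for CCL2 and 10.2 to 30.0 for CCL7. For CCL20 it was 7.30 to 19.9, above the range of CCL2 and overlapping that of CCL7, from 5 reads after depletion.

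**Figure D3:**
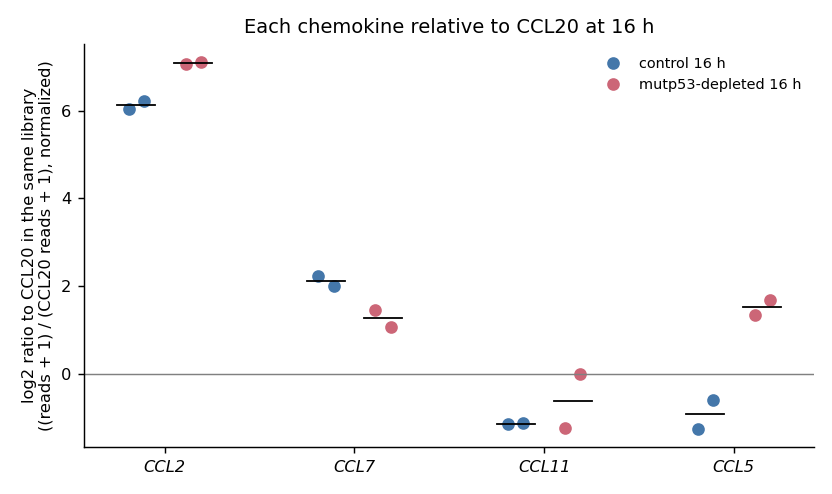
The log2 ratio of each chromosome 17 chemokine to CCL20 in the same library at 16 h (normalized reads + 1), with points for libraries and bars for the mean of 2. CCL2 and CCL5 lie higher in the depleted libraries, CCL7 lies lower, and the CCL11 points of the depleted libraries span 0 to -1.24.

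Per length, the order of levels in control cells at 16 h was CCL2 at 2378 ± 388 normalized reads per kb (SD, n = 2), CCL7 at 137 ± 49.5, CCL20 at 29.4 ± 7.71, CCL11 at 11.5 ± 3.10 and CCL5 at 9.97 ± 0.693. CCL11 and CCL5 did not differ beyond their spread. In mutp53-depleted cells at 16 h the order was CCL2 at 594 ± 258, CCL7 at 9.01 ± 6.29, CCL5 at 6.63 ± 2.25, CCL20 at 2.75 ± 1.80 and CCL11 at 1.13 ± 0.300. There CCL7 and CCL5 did not differ beyond their spread, nor did CCL20 and CCL11, and CCL5 had moved from the fifth place to the third. By level per length, CCL2 ranked 202 among 16739 genes with a read in control cells at 16 h and 1267 among 16987 in depleted cells. CCL7 ranked 5312 and 12070, and CCL5 12142 and 12517.

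Among all 28 CC chemokine ligands of the table, CCL2 took most of the reads after TNF-α in both kinds of cell. The ligands summed to 2207 and 1736 normalized reads in the control libraries at 16 h, and to 639 and 341 in the depleted libraries. CCL2 made up 89.2% and 89.9% of this sum in control cells and 90.2% and 89.5% in depleted cells, so that its share differed by about 1 percentage point at most while both depleted sums were below both control sums. The share of CCL7 was 6.31% and 4.75% in control and 1.71% and 1.09% in depleted cells. The share of CCL5 was 0.526% and 0.737% against 1.57% and 1.81%. Before TNF-α the sum was only 43.9 to 71.9, and CCL28 took 55.0% to 81.3% of it. These shares are of reads and are not corrected for length. Per kb, CCL24 was above CCL28 in the control libraries at 0 h, with at least 46.8 against at most 14.5. In the depleted libraries at 0 h, CCL28 was above CCL24 per kb.

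Of the other 23 ligands, 16 had no read in any library, 5 had up to 13 reads over all libraries, and 2, CCL24 and CCL28, passed the filter. CCL28 had 40.9 ± 4.53 (SD, n = 2) in control cells at 16 h, more normalized reads than CCL20, CCL11 or CCL5. Per kb it had 11.7 and 13.7 there, below CCL20 at 34.8 and 23.9. Of CCL24 and CCL28, only CCL24 was called with depletion, lower at both times. The shares of all genes called in either direction were 15.4% at 0 h and 15.2% at 16 h. Neither ligand was called for TNF-α or for the difference between responses. CCL24 (eotaxin-2), which like CCL11 attracts eosinophils through CCR3, had 18.9 and 16.7 normalized reads in the control libraries at 0 h and 5.80 and 5.69 at 16 h. The depleted libraries had 2.68 and 0 at 0 h, and 0 and 1.23 at 16 h, all below every control library. Its log2 difference was -3.29 ± 0.71 (SE) at 0 h (limma adjusted p = 0.00077) and -2.18 ± 0.71 at 16 h (limma adjusted p = 0.016). The 50 genes nearest to CCL24 had a median of -0.54 at 0 h and -0.45 at 16 h. CCL24 thus differed already before TNF-α, when CCL2 overlapped between the groups, and had fewer reads at 16 h than at 0 h in control cells (log2 difference -1.47, limma adjusted p = 0.14). CCL28, a mucosal epithelial chemokine, had 33.3 to 46.5 in the control libraries over both times and 21.0 to 42.2 in the depleted libraries, and its log2 difference at 16 h was -0.55 ± 0.30 (limma adjusted p = 0.13).

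Of 14 receptors for CC chemokines, 4 had no read and 4 passed the filter (CCR1, CCR4, CCR7 and CCRL2). CCR2, the receptor of CCL2, had 2 reads over all libraries, and CCR3 and CCR6 had 10 each. One of the 4, CCRL2, a non-signalling receptor that binds chemerin, was called, higher after depletion at 16 h (15.2% of all genes in either direction), and none for TNF-α in control (7.24%) or mutp53-depleted cells (6.36%) or for the difference between responses (2.86%). CCRL2 had 2.90 and 0 normalized reads in control and 5.87 and 14.8 in depleted cells at 16 h, a log2 difference of 2.40 ± 0.90 (limma adjusted p = 0.032) from 3 against 19 reads. This call was lost with a pseudocount of 0.1, with DESeq2, without depleted 16 h library B, and with the median of the 50 nearest genes (0.44) removed. CCR7, the homing receptor for CCL19 and CCL21, had 64.8 and 61.2 in control and 103 and 88.9 in depleted cells at 16 h, a log2 difference of 0.60 ± 0.18 (limma adjusted p = 0.0098) that was under 2-fold, beside a median of 0.50 for its 50 nearest genes. With TNF-α in control cells its log2 difference was -0.74 ± 0.18 (limma adjusted p = 0.0047), also under 2-fold. CCR1 had 1.51 to 10.7 and CCR4 0 to 6.06 normalized reads over the 8 libraries, and neither was called.

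The genes around the chromosome 17 chemokines did not share their lower values. Of 15 other genes within 1 Mb of CCL2, 9 were tested, and with depletion at 16 h their median log2 difference was 0.61, with 0 called higher and 1 lower, beside 15.2% of all genes called in either direction. Of 35 genes within 1 Mb of CCL5, some of them counted for CCL2 too, 23 were tested, with a median of 0.59, 2 called higher and 1 lower, a share near that of all genes. Near CCL20, 4 of 12 genes were tested, with a median of 0.20 and none called. Of these 4, AGFG1 (log2 difference 0.58 ± 0.08) and MFF (0.33 ± 0.10) passed the adjusted p by limma but not the fold, and both were named after their values were seen. The median of the 50 nearest tested genes was 0.50 for CCL2, 0.48 for CCL7 and CCL11, 0.43 for CCL5 and 0.06 for CCL20, so that the chemokines lay below, and most of their neighbours above, the median of all genes (-0.01).

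The called gene nearest in direction was CCT6B, a chaperonin subunit gene 673 kb from CCL2, which fell by 1.62 on the log2 scale with depletion at 16 h (SE 0.56, limma adjusted p = 0.022). Near CCL5, SLFN11, a Schlafen gene known for its role at stressed replication forks, was higher by 1.69 ± 0.48 (limma adjusted p = 0.0065) and RDM1 by 1.11 ± 0.37 (limma adjusted p = 0.019). TMEM132E, 325 kb from CCL2, fell with TNF-α in control cells by 2.71 (SE 0.61, limma adjusted p = 0.0026). SLFN5, an interferon-inducible Schlafen gene 988 kb from CCL2, rose with TNF-α in control cells by 1.07 ± 0.13 (limma adjusted p = 3.7e-06) and with depletion at 0 h by 1.36 ± 0.13 (limma adjusted p = 6.4e-08). At 16 h SLFN5 was also higher after depletion, by 0.51 ± 0.13 (limma adjusted p = 0.0024), which was under 2-fold. Its TNF-α response was smaller after depletion by a log2 difference of -0.85 ± 0.18 (limma adjusted p = 0.012).

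**Figure D4:**
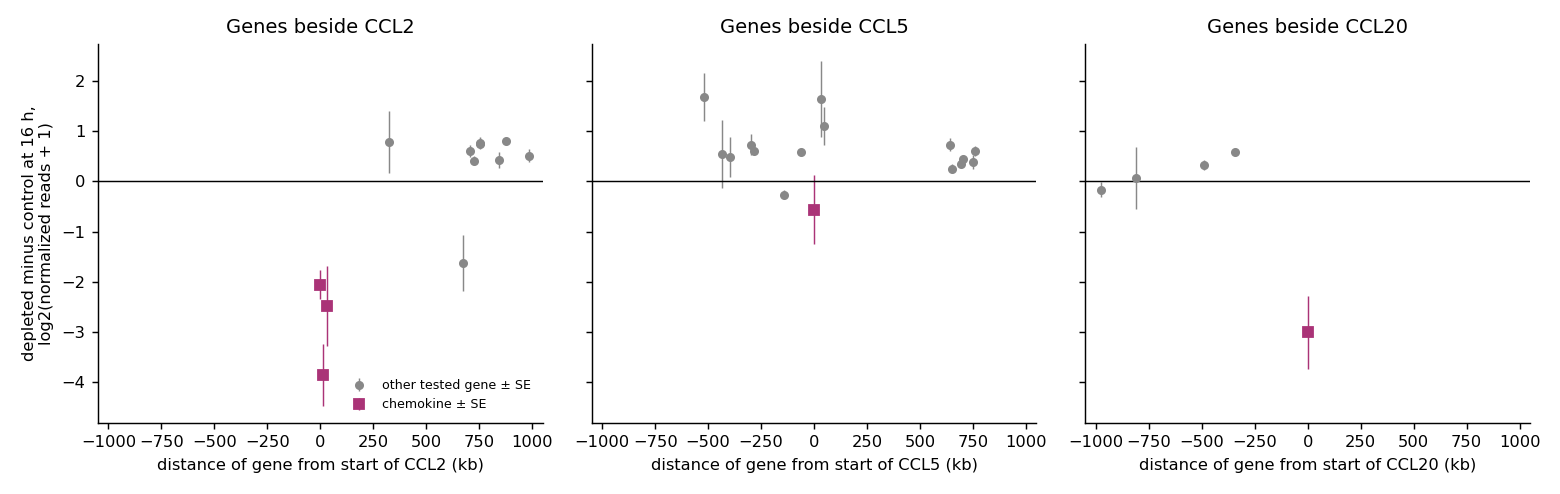
The log2 difference between mutp53-depleted and control cells at 16 h against the distance from the start of CCL2, CCL5 or CCL20 in kb, with other tested genes within 1 Mb as grey circles, the chemokines as squares and the SE of the fit as bars; genes within 1 Mb of both CCL2 and CCL5 are shown beside CCL2. The chemokines lie below 0, most other genes lie above 0, and CCT6B is the exception beside CCL2.

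Across the 8 libraries, the 5 genes whose log2(value + 1) was most like that of CCL2 were LIMD2 (Pearson r = 0.998), ARHGEF40 (0.997), CD83 (0.997), IL18R1 (0.996) and JAG1 (0.995). CCL5 came in place 8 (0.994), ahead of CCL7 in place 173 (0.945), CCL20 in place 274 (0.916) and CCL11 in place 382 (0.883). For CCL20 the most similar genes were CCL7 (0.997), FOXO1 (0.993), TGIF1 (0.988), CMIP (0.988) and UBD (0.988), with CCL11 in place 7 (0.983), CCL2 in place 148 (0.916) and CCL5 in place 245 (0.885). These correlations are descriptive, since the 8 libraries fall into 4 groups of 2 and the genes were ranked for likeness. IL18R1, a subunit of the interleukin-18 receptor, had means of 88.2 ± 16.1 (SD, n = 2) in control and 42.9 ± 18.8 in depleted cells at 16 h, and 1.85 and 2.71 at 0 h. UBD, a ubiquitin-like protein gene that responds to TNF-α, was at 0 in every library at 0 h and had 696 ± 68.6 in control and 17.7 ± 2.29 in depleted cells at 16 h. By this measure CCL7 was nearer to CCL20 on chromosome 2 than to CCL2, 14.9 kb away. However, CCL7, CCL11, CCL20 and CCL5 were at 0 at 0 h, so their r depends on the pseudocount and on low counts. CCL20 and CCL11 had 5 and 2 reads in the depleted libraries at 16 h. Nor does r compare the sizes of changes: with depletion at 16 h, CCL5 was 1.50-fold and CCL2 4.01-fold lower. No r was computed with another pseudocount.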

How the data were processed

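Strand-specific poly(A) RNA libraries (dUTP method) were sequenced with 50-base reads. Per the labels and the study's methods, the authors mapped them with STAR and counted reads on RefSeq gene exons with HOMER. Their deposited signal values, as the authors made them, are reads times 1 factor per library, which gives equal totals. All values (100% within 0.1 read) gave back whole reads. The table's header and coordinates are hg19, whereas the labels name hg38, and coordinates are printed as deposited. The authors also deposited log2 fold changes, p-values and adjusted p-values of 4 comparisons made with edgeR, which were not used. The replicate letters come from the column names.

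Tests used limma 3.58.1 (R 4.3.3, with trend) on log2(value + 1) in 1 fit of all 8 libraries, over 14800 genes averaging at least 2.5. On simulated data for depletion at 16 h, 186 of 200 genes changed 4-fold were recovered among 14800, with 3 false calls. The changed genes were drawn at random, and every gene was given the same spread beyond counting. This recovery therefore does not describe genes with few reads, such as CCL11 and CCL20. Alternatives were other scaling, filters and pseudocounts, a replicate block, edgeR 4.0.16 and DESeq2 1.42.0 on recovered reads, removal of the median of the 50 nearest genes, and leaving out each library. Replicates differed by more than counting noise (chi-square per gene 2.14 to 4.10).

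The genes and lists were chosen with earlier results of these data known. Named were the 5 members, the other CC ligands and receptors that passed the filter, called genes within 1 Mb (at most 10) and the 5 genes most correlated with CCL2 and with CCL20. Some results are not reported here. Ligands and receptors under the filter, named only by their reads, were added to these after their values were seen.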

Additional observations from a re-analysis of the deposited data

Results flagged for a closer look

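Among the genes named, 3 had a difference between the TNF-α responses of control and mutp53-depleted cells that passed the threshold in the fit over 14800 genes. For SLFN5, 988 kb from CCL2, this log2 difference was -0.85 (limma adjusted p = 0.012). Unlike CCL2 and CCL7, SLFN5 was higher after depletion at 16 h (log2 difference 0.51), and more so at 0 h (1.36). The difference between responses was -2.24 for CCL2 (8.67 in control and 6.43 in depleted cells) and -3.85 for CCL7 (6.76 and 2.90). CCL2 and CCL7 were chosen with this pattern known, so their values are a description and no test, and neither passed with edgeR's quasi-likelihood test or DESeq2. With no read at 0 h, the value for CCL7 repeats its difference at 16 h.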

How the results depend on the processing

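Of 355 comparisons of the 5 genes with an alternative, 336 kept direction and side of the threshold, 15 lost the call, 2 gained it and 2 changed sign. Many of these comparisons could not change direction. Other filters, the replicate block and leaving out a library outside the contrast leave the log2 difference as it was, and only its adjusted p can move. The comparisons also share libraries, so their number is not a measure of robustness. Both sign changes were those of the CCL2 difference at 0 h (0.18, not called), which was -0.33 with the regional median removed and -0.21 without depleted 0 h library A (0.56 without library B), from at most 8 reads in a library. CCL20 gained the difference between responses with a pseudocount of 5 (-2.01) and the TNF-α response in mutp53-depleted cells with no filter (1.64). The CCL7 difference between responses lost its call with a pseudocount of 0.1 and without either control 16 h library, depleted 0 h library B or depleted 16 h library B (-4.53 to -3.18 over all libraries left out). The count of genes with a called difference between responses was 424, and 208 to 421 with 1 library left out. Called ligands other than the 5 went from 1 to 2 with no filter and 0 at a mean of at least 10. Called receptors went from 1 to 2 with no filter, and to 0 at a mean of at least 10, with a pseudocount of 0.1, with DESeq2, with the regional median removed and without depleted 16 h library B. Called genes beside the members went from 5 to 8 with no filter, 3 with DESeq2 and 2 to 6 with 1 library left out. The change of CCL2 over CCL20 was 1.43 and -0.038 with pseudocounts of 0.1 and 5, 1.30 and 1.28 with edgeR's quasi-likelihood and exact tests, 1.36 with DESeq2 and 0.50 with the regional median removed. That of CCL7 over CCL20 was -0.56, -1.24, -0.55, -0.55, -0.54 and -1.27 in the same order. That of CCL11 over CCL20 was 0.27, 0.66, -0.02, -0.02, -0.04 and 0.10 in the same order. It was 1.14 without depleted 16 h library A and -0.10 without library B. The cause of these changes was not tested, except that the stricter filter tests fewer genes. The exact test gave no difference between responses.

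Over all genes tested, same-letter deviations were nearly uncorrelated (-0.02 to 0.07 over 6 pairs of groups). A correlation over all genes cannot show whether the letters A and B paired the libraries for single genes. At 16 h, CCL2, CCL7 and CCL20 were higher in library A than in B in both kinds of cell. CCL11 was so in control cells only and CCL5 in depleted cells only. With the replicate block, the count of called differences between responses was 559, the counts for depletion were 2298 at 0 h and 2271 at 16 h, those for TNF-α 1096 and 955, and no call of the 5 genes changed. Below about 10 reads per group, as for CCL11 and CCL20 after depletion, depth limits the folds.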
